A study of Mus musculus with 13 samples.

Results

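Oxidative phosphorylation was examined through 41 nuclear genes of the respiratory chain in whole mouse hippocampus. A probe set counted when the platform annotation gave it to exactly 1 of these genes. Each gene was then represented by its probe set with the highest mean over all 13 arrays. All 41 genes were measured, among 19938 genes tested and 35556 probe sets in all. The list holds 18 subunits of complex I, 4 of complex II, 5 of complex III, cytochrome c, 7 subunits of complex IV with Ndufa4 among them, the copper chaperone Cox17 and 5 subunits of complex V.

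The mice were C57BL/6J animals of 1 to 2 months on standard chow, and each array held the hippocampus of 1 mouse. Wild-type mice (Kmt2d+/+) were compared with Kmt2d+/βGeo mice, in which a gene trap interrupts 1 allele of a histone H3 lysine 4 methyltransferase in every cell, a model of Kabuki syndrome. Experiment 1 had 4 wild-type and 3 heterozygous mice without injections, and experiment 2 had 3 of each that received 3 injections of saline a day. The labels give the sex as female for 12 mice and as unknown for wild-type replicate 3 of experiment 1. The injections, the array run and any step of normalisation done separately went with the experiment and cannot be told apart.

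The respiratory chain passes electrons from NADH through complex I, or from succinate through complex II, to complex III, cytochrome c and complex IV, which reduces oxygen. Complexes I, III and IV pump protons, and complex V, the ATP synthase, uses the gradient to make ATP. Neurons depend on this pathway for the ATP that ion pumping and synaptic transmission consume. A few subunits are encoded in the mitochondrial genome, and 0 of the 13 looked for were measured. Every value below therefore concerns nuclear transcripts.

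Nuclear respiratory genes are known targets of NRF1, of the ETS factor GABP (also called NRF2) and of YY1. The bases before the gene start of 5 members are shown because 4 of them hold a match to the NRF1 or ETS letters there, and because Ndufa1 had the largest difference between the experiments among the members. They are from RefSeq's GRCm38.p6, all on the minus strand and written from 5′ to 3′ towards the gene. Capitals mark the NRF1 letters CGCATGCG in Cycs and Ndufa8 and the ETS letters CCGGAAG, read on either strand, in Ndufs3 and Sdhd. The regions are chr6:50566570-50566689 for Cycs, chr2:36049339-36049458 for Ndufa8, chr2:90904722-90904841 for Ndufs3, chr9:50603850-50603969 for Sdhd and chrX:37191239-37191358 for Ndufa1.
Cycs: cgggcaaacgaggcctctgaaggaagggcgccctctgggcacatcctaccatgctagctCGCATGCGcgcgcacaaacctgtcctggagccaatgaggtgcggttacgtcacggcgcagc
Ndufa8: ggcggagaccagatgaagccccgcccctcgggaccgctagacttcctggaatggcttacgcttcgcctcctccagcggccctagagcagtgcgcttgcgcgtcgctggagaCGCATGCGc
Ndufs3: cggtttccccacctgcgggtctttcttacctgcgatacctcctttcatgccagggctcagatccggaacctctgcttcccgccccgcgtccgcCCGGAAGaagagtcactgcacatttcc
Sdhd: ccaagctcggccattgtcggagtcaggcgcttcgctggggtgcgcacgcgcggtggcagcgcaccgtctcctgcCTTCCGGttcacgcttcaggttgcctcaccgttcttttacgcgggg
Ndufa1: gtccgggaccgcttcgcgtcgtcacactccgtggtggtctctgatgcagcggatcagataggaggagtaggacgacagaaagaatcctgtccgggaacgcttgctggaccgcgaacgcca

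The promoter table held windows of 300 bases that span the start for 31 of the 41 members, in 34 windows. Both strands were searched, and the NRF1 letters occurred in 3 member windows (8.82%) against 1.87% of all 32851 windows. The ETS letters occurred in 5 (14.7%, against 8.86%) and the YY1 letters AAGATGGC in 4 (11.8%, against 2.75%). All 4 YY1 matches lay after the start, in Ndufa9, Ndufb8, Ndufs4 and Ndufs7. The Sp1 letters GGGCGG occurred in 14 (41.2%, against 35.7%), the cAMP response element TGACGTCA in 3 (8.82%, against 1.79%) and the oestrogen-related receptor letters TCAAGGTCA in 1 (2.94%, against 0.423%). In Ndufs3 an Sp1 match from position -31 overlapped the ETS match from -27. A match describes the letters and not binding.

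The arrays fell apart by experiment. Over all genes, pairs of arrays from different experiments correlated with r = 0.936 to 0.958, below every pair from experiment 1 (at least 0.991) or experiment 2 (at least 0.985). The values spread less in experiment 2, with an SD over probe sets of 2.13 to 2.17 log2 units against 2.28 to 2.35 in experiment 1. Kmt2d has 2 probe sets: 1 was lower in heterozygous mice over both experiments, by -0.53 ± 0.08 (SE), and the other differed by 0.07 ± 0.07. Neither passed the test over all probe sets (limma adjusted p = 0.427 and 0.989), and the sources do not give the part of the transcript that each covers. Pyramidal and dentate granule cell markers were measured on every array, with means of 9.21 to 10.28 for the 8 pyramidal genes and 8.42 to 9.54 for the 8 granule cell genes. Wild-type replicate 2 of experiment 1 had a mean of 11.6 over 6 striatal marker genes, where the arrays of the other groups had 8.58 to 8.92. Fewer cells of a type and less RNA per cell cannot be told apart in whole tissue.

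The first question was whether loss of 1 Kmt2d allele shifted the respiratory genes. None of the 41 members passed the test over both experiments, and the background was the same, with 0% of the 19938 genes called (limma, Benjamini-Hochberg adjusted p under 0.05). The lowest adjusted p of a member was 0.934. Without adjustment, 0 members and 1046 genes (5.25%) had p under 0.05. Heterozygous means were above wild-type means for 20 members and below for 21 (above for 51% of all genes), with a median of -0.002 log2 units (0.002 over all genes). The median size of the difference, sign aside, was 0.039 for the members and 0.056 for all genes.

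The SE of a member's genotype difference was 0.05 to 0.11 log2 units, with a median of 0.07. For 40 members the 95% interval lay inside a 1.25-fold change either way, and for all 41 inside 1.5-fold. The lowest bound was -0.40, for Atp5d, and the highest was 0.28, for Uqcrfs1, the Rieske iron-sulfur subunit of complex III. Differences inside these intervals remain compatible with the values of the 7 wild-type and 6 heterozygous mice.

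**Figure D1:**
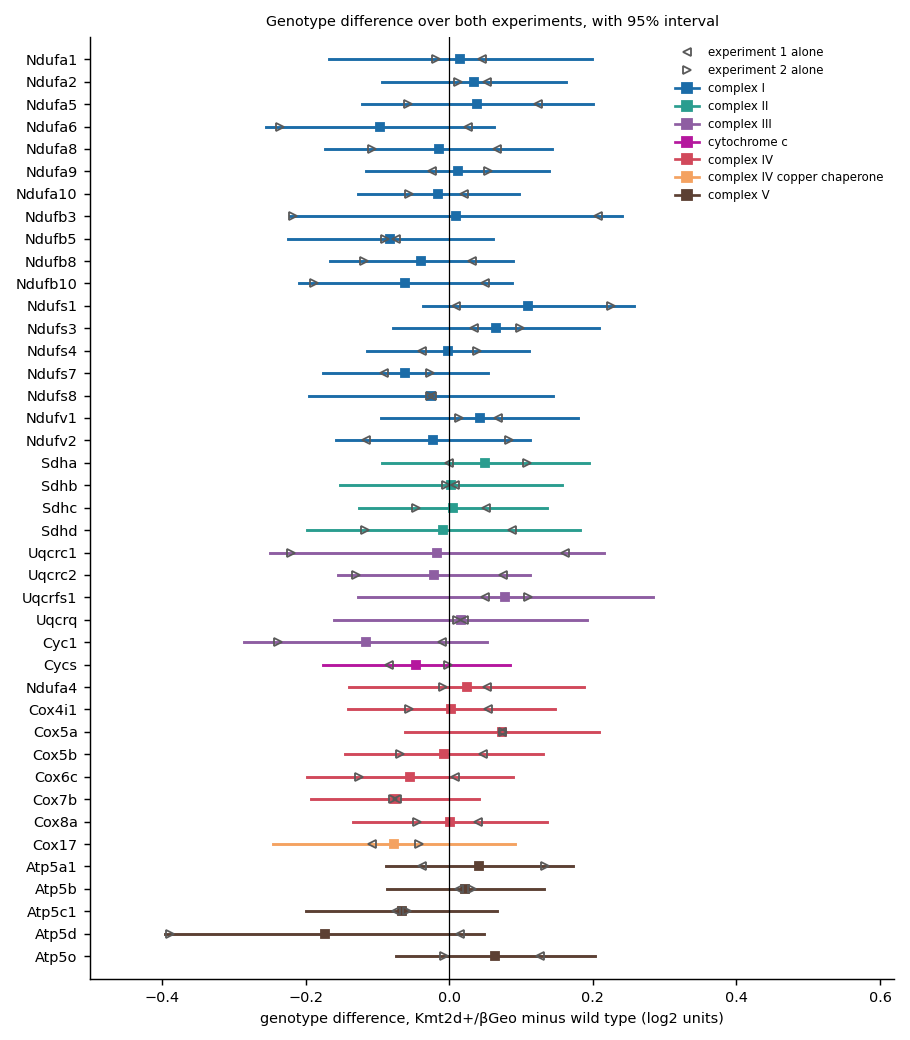
The plot gives each member's genotype difference (horizontal axis, Kmt2d+/βGeo minus wild type, log2 units) over both experiments as a square with its 95% interval, coloured by complex, and open triangles for each experiment alone. The intervals of all 41 members include 0, and Atp5d reaches furthest down, to -0.40.

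By complex, the medians of the genotype difference were -0.01 for complex I, 0.004 for complex II, -0.02 for complex III, 0.001 for complex IV and 0.02 for complex V. Cytochrome c (Cycs), the mobile carrier between complexes III and IV, differed by -0.05 ± 0.06. Cox17, which carries copper to complex IV, differed by -0.08 ± 0.08. Within complex I, the 6 core subunits had a median of 0.01 and the 12 accessory subunits a median of -0.01. This division was made after the values were seen.

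Atp5d, the delta subunit of the ATP synthase rotor, had the lowest p of the members. In experiment 1 it read 12.73, 12.64, 12.73 and 12.72 log2 units in wild-type mice and 12.75, 12.71 and 12.70 in heterozygous mice. In experiment 2 it read 11.55, 11.85 and 11.78 in wild-type mice and 11.61, 11.49 and 10.92 in heterozygous mice. The genotypes overlapped in both experiments, and heterozygous replicate 3 of experiment 2 was the lowest of all. The difference over both experiments was -0.17 ± 0.10 (SE; limma adjusted p = 0.934, range 0.785 to 0.997 over the alternatives), and it was -0.06 without that array.

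Ndufs1, the largest core subunit of complex I, carries iron-sulfur clusters near the NADH site. It read 10.14, 9.94, 10.12 and 10.07 in wild-type and 10.13, 10.05 and 10.04 in heterozygous mice of experiment 1. In experiment 2 it read 9.22, 9.03 and 8.85 against 9.22, 9.23 and 9.33. The lowest heterozygous and the highest wild-type mouse of experiment 2 both rounded to 9.22, and the groups overlapped in both experiments. Over both experiments the difference was 0.11 ± 0.07 (limma adjusted p = 0.934, range 0.800 to 0.997 over the alternatives).

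Cyc1, the cytochrome c1 of complex III, read 11.21, 11.06, 11.19 and 11.19 in wild-type and 11.20, 11.13 and 11.12 in heterozygous mice of experiment 1. In experiment 2 it read 11.51, 11.31 and 11.27 against 11.37, 11.13 and 10.87. The groups overlapped in both experiments, and the lowest value again belonged to heterozygous replicate 3 of experiment 2. The difference over both was -0.12 ± 0.08 (limma adjusted p = 0.934, range 0.779 to 0.997 over the alternatives) and -0.05 without that array. Cox7b, a small subunit of complex IV, differed by -0.08 ± 0.06. Its values ran from 12.22 to 12.44 in experiment 1 and from 12.05 to 12.30 in experiment 2, with both genotypes interleaved.

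Complex II, which is also the succinate dehydrogenase of the tricarboxylic acid cycle, had differences of -0.01 to 0.05. Sdha, its flavoprotein, differed by 0.05 ± 0.07, and Sdhb, its iron-sulfur subunit, by 0.002 ± 0.07. The membrane anchors Sdhc and Sdhd differed by 0.01 ± 0.06 and -0.01 ± 0.09. Sdhd held exactly 9.3536 on 5 arrays. Ndufa6 likewise held 9.3688 on 6 arrays, Ndufa10 had 4 tied arrays and Ndufs3 had 3, and the source of these ties was not tested.

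In experiment 1 alone, 0 members were called, against 4 genes (0.0201%) over the whole table. The members' median was 0.03 (0.02 over all genes), and 28 of 41 differences were above 0 (57.5% of all genes). The genotypes did not overlap for 2 members, against 7.22% of all genes. Ndufb3, an accessory subunit in the membrane arm of complex I, read 7.88, 8.15, 8.09 and 8.10 in wild-type and 8.25, 8.20 and 8.34 in heterozygous mice. Every heterozygous mouse was higher, a difference of 0.21 ± 0.13 (limma adjusted p = 1, range 0.321 to 1 over the alternatives; exact permutation p = 0.0571, two-sided). Ndufv2, an iron-sulfur subunit of complex I, read 11.40, 11.43 and 11.39 in heterozygous mice, below the wild-type values of 11.45 to 11.56. Its difference was -0.12 ± 0.08 (limma adjusted p = 1).

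In experiment 2 alone, 0 members and 0% of all genes were called. The members' median was -0.04 (-0.01 over all genes), and 13 of 41 differences were above 0 (47% of all genes). Without adjustment, 3 members had p under 0.05 in limma, against 10.2% of all genes. They were Atp5d at -0.39 ± 0.14, Ndufa6, an accessory subunit of complex I, at -0.24 ± 0.10 and Ndufs1 at 0.23 ± 0.10, with adjusted p of 0.39, 0.45 and 0.44. Uqcrc2, a core protein of complex III, was the single member whose genotypes did not overlap (9.48% of all genes did not): it read 11.02, 11.08 and 11.07 in heterozygous mice and 11.25, 11.20 and 11.10 in wild-type mice. Its difference was -0.13 ± 0.09. Permutation of 3 against 3 mice cannot go below 0.1, and Atp5d and Ndufs1 both had an exact permutation p of 0.2.

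Heterozygous replicate 3 of experiment 2 stood apart for these genes. Its members' deviations from the experiment means had an SD of 0.21, where the other arrays had 0.05 to 0.13. Its mean deviation was -0.10 over the 41 members and -0.27 over the 5 complex III genes. Uqcrc1, the other core protein of complex III, read 10.21 there and 10.54 to 11.05 on the other arrays of experiment 2. Without this array the members' median in experiment 2 was -0.01 in place of -0.04, and Atp5d differed by -0.18 in place of -0.39. Over all genes this array's deviations had an SD of 0.22, where the other arrays of experiment 2 had 0.15 to 0.17, and its part in the experiment 2 differences beyond these values was not tested.

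**Figure D2:**
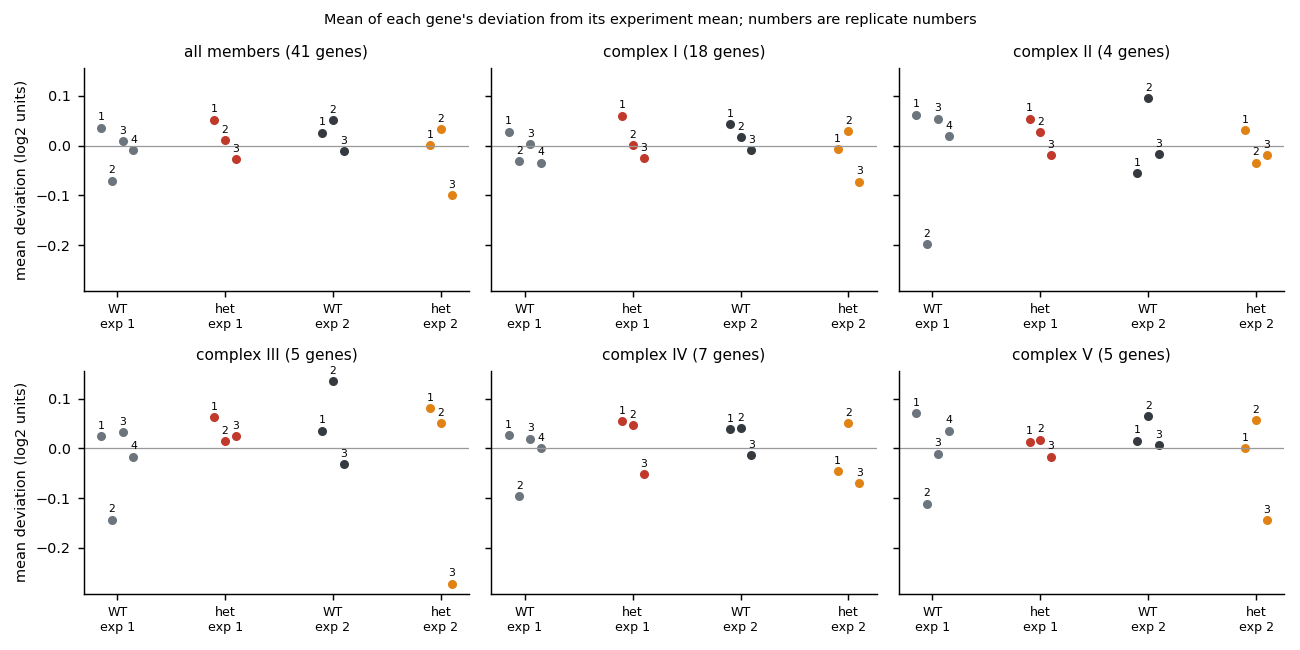
The panels give, for each mouse, the mean deviation of the genes of a complex from their experiment mean (vertical axis, log2 units) in wild-type and heterozygous (het) mice of experiments 1 and 2, with replicate numbers. Heterozygous replicate 3 of experiment 2 lies lowest for all members (-0.10) and for complex III (-0.27), and wild-type replicate 2 of experiment 1 lies low in complex II (-0.20).

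The genotype difference was then compared between the experiments. No member passed this test either (0 of 41, 0% of all genes; limma). Without adjustment, Ndufb3 (-0.43 ± 0.20) and Atp5d (-0.41 ± 0.19) had p under 0.05, 2 of 41 members against 6.53% of all genes. For Ndufb3 the values of experiment 2 were 9.43, 8.92 and 8.97 in wild-type and 8.58 to 9.10 in heterozygous mice, so the groups overlapped there. The sign of the genotype difference was the same in both experiments for 16 of 41 members, against 48.2% of all genes. The precision was lower here: the 95% interval lay inside a 1.25-fold change for 9 members and inside 1.5-fold for 38.

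The experiments themselves differed widely. Between experiment 2 and experiment 1, 36 of 41 members passed the test, 22 higher and 14 lower in experiment 2, against 77.2% of all genes (41.8% higher and 35.4% lower; limma adjusted p under 0.05). The median difference was 0.41 log2 units, and 0.07 over all genes. The median size, sign aside, was 0.75 for the members and 0.39 for all genes. Centring each array on its median moved the median of all genes by -0.24, and a second quantile normalisation moved it by -0.12. The split of the called members was 19 higher and 16 lower when centred, and 26 higher and 11 lower after quantile normalisation. Over all genes the split was 8331 higher and 7054 lower as deposited, 3913 and 9929 when centred, and 5221 and 7499 after quantile normalisation. The members' median lay above that of all genes by 0.34 as deposited, a gap that centring leaves as it is by construction, and by 0.59 after quantile normalisation. When centred, the 4 members Ndufa6, Ndufa10, Sdhd and Cyc1 turned from above to below 0, and the calls of Ndufa8 (0.17), Ndufv1 (0.06) and Atp5c1 (0.16) were lost. After quantile normalisation no member turned direction, and the calls of Uqcrc1 (-0.13), Cox8a (-0.14) and Atp5b (-0.06) were lost.

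A difference of over 1 log2 unit was seen in 12 members, 10 up and 2 down (29.3%, against 11.9% of all genes), and a rise of that size in 2.53% of all genes. A rise of over 2 log2 units was seen in 5 members (12.2%) and in 0.366% of all genes.

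Ndufa1, a small accessory subunit in the membrane arm of complex I, had the largest rise. It read 8.07, 7.95, 8.01 and 7.58 in wild-type and 8.14, 7.96 and 7.74 in heterozygous mice of experiment 1. In experiment 2 it read 12.41, 12.33 and 12.28 in wild-type and 12.41, 12.41 and 12.15 in heterozygous mice. The experiments were far apart in both genotypes, by 4.41 ± 0.09 log2 units or 21.2-fold (limma adjusted p = 1.3e-15), the 2nd largest rise of all 19938 genes.

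Cox17 rose almost as far and ranked 3rd of all genes. It read 7.50, 7.62, 7.25 and 7.30 in wild-type and 7.46, 7.36 and 7.12 in heterozygous mice of experiment 1, and 11.28, 11.29 and 11.24 against 11.28, 11.38 and 11.04 in experiment 2. The lowest mouse of experiment 2 was above the highest of experiment 1, and the difference was 3.88 ± 0.08, or 14.8-fold (limma adjusted p = 1.7e-15). Ndufb10, Ndufa5 and Ndufa2, accessory subunits of complex I, followed at 2.92 ± 0.07, 2.28 ± 0.08 and 2.21 ± 0.06, with ranks of 12, 41 and 49 among the rises of all genes.

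**Figure D3:**
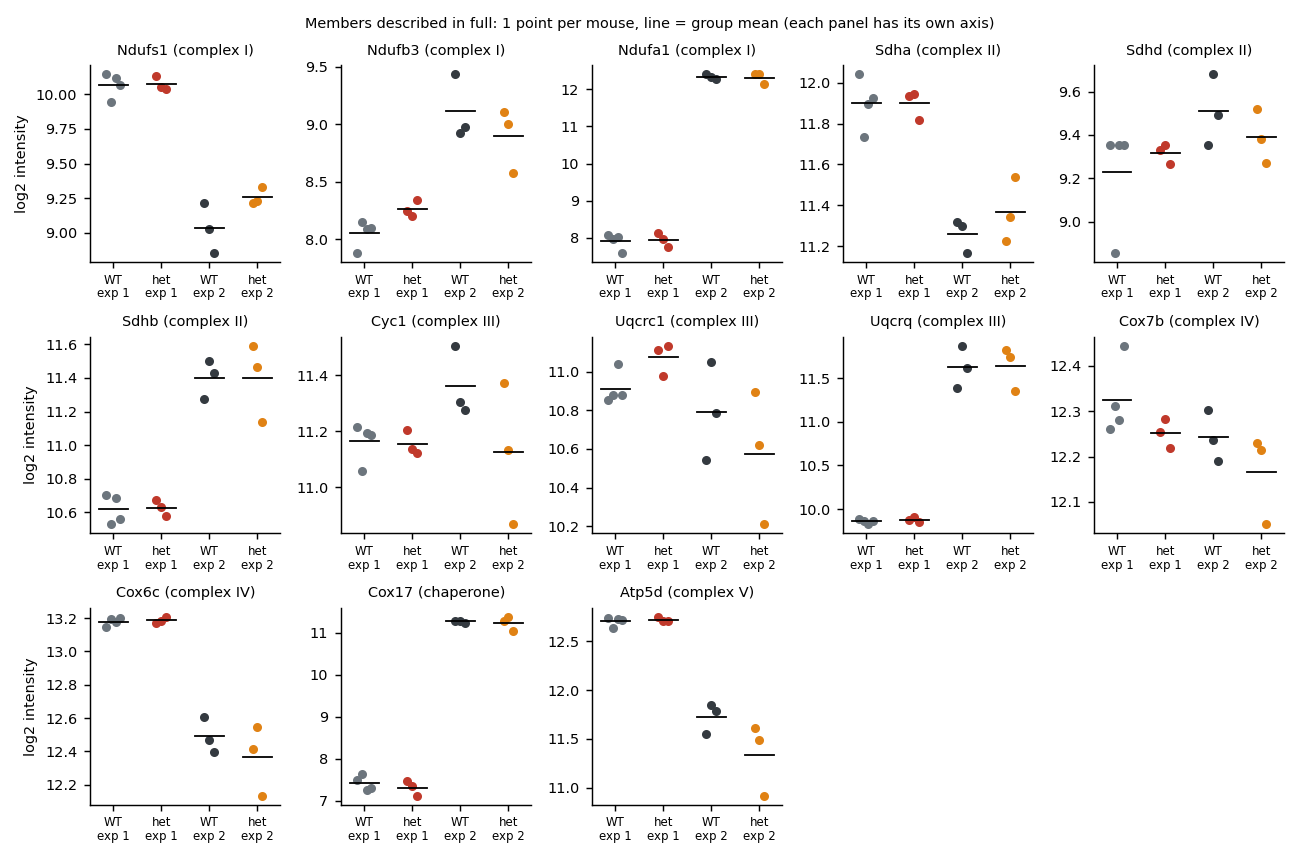
Each panel gives the log2 intensity of 1 member (vertical axis, scaled per panel) in every mouse of the 4 groups, wild type (WT) and heterozygous (het) in experiments 1 and 2, with a line at the group mean. Ndufa1 and Cox17 lie near 8 and 7 in experiment 1 and above 12 and 11 in experiment 2, while the genotypes overlap within most panels.

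Complex I moved in both directions, with 11 of 18 genes higher (61.1%), 5 lower (27.8%) and a median of 0.43. The shares over all genes were 41.8% higher and 35.4% lower. Core and accessory subunits were taken apart, a division made after the values were seen. Of the 12 accessory subunits, 9 rose and Ndufs4 fell, by -0.72 ± 0.05, with a median of 0.73 over the 12. Of the 6 core subunits, which carry the flavin and the iron-sulfur clusters or frame them, 4 fell and 2 rose, with a median of -0.62. Ndufs7, which holds the last iron-sulfur cluster before ubiquinone, fell most. It read 12.16 to 12.44 over the 7 mice of experiment 1 and 10.68 to 10.84 over the 6 of experiment 2, a difference of -1.53 ± 0.05. Ndufs8, another iron-sulfur subunit, fell by 1.00 ± 0.08 and Ndufs1 by 0.94 ± 0.07. Ndufv2 fell by 0.31 ± 0.06, whereas Ndufv1, which binds NADH and the flavin, rose by 0.30 ± 0.06 and Ndufs3 by 0.52 ± 0.07. Ndufa10 did not pass with all arrays (0.11). It passed at 0.12 without heterozygous replicate 3 of experiment 2 and at 0.23 after quantile normalisation, and was at -0.14 when centred. Ndufa6 did not pass at 0.04, passed at 0.34 after quantile normalisation and passed in the other direction, at -0.20, when centred.

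In complex II, Sdha fell while Sdhb and Sdhc rose. Sdha read 11.74 to 12.04 in experiment 1 and 11.17 to 11.54 in experiment 2, a difference of -0.59 ± 0.07. Sdhb read 10.53 to 10.70 and then 11.14 to 11.59, a difference of 0.78 ± 0.07, and Sdhc rose by 0.59 ± 0.06. Sdhd differed by 0.18 ± 0.09, which did not pass (limma adjusted p = 0.071), but passed at 0.22 without heterozygous replicate 3 of experiment 2 and at 0.47 after quantile normalisation, and was at -0.06 when centred.

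Complex III had a median of 0.09, with 2 genes higher, 2 lower and Cyc1 not past the test at 0.09 ± 0.08. Its shares of 40% higher and 40% lower lay near those of all genes (41.8% and 35.4%). Uqcrq, a small accessory subunit, read 9.82 to 9.91 in experiment 1 and 11.35 to 11.87 in experiment 2, a rise of 1.76 ± 0.08. Uqcrfs1 rose by 1.11 ± 0.10. The core proteins went down, Uqcrc2 by 0.46 ± 0.06 and Uqcrc1 by 0.30 ± 0.11 (limma adjusted p = 0.022). The Uqcrc1 call was lost without heterozygous replicate 3 of experiment 1 (-0.26, limma adjusted p = 0.0504), and also when replicate 1 of the wild-type mice in experiment 2 was left out (-0.26, limma adjusted p = 0.0556). Cyc1 passed at 0.16 without heterozygous replicate 3 of experiment 2 and at 0.23 after quantile normalisation, and was at -0.15 when centred. Uqcrc1 passed in heterozygous mice (-0.50 ± 0.15) and not in wild-type mice (-0.12 ± 0.14), and the difference between them did not pass (limma adjusted p = 0.769).

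Complex IV had a median of 0.83, with 4 of 7 genes higher (57.1%, against 41.8% of all genes) and 2 lower (28.6%, against 35.4%). Ndufa4, once assigned to complex I, rose by 1.93 ± 0.08, and Cox4i1, the largest nuclear subunit, by 1.49 ± 0.07. Cox5b rose by 0.93 ± 0.07 and Cox5a by 0.83 ± 0.06. Cox8a fell by 0.22 ± 0.06 and Cox6c by 0.75 ± 0.07. Cox6c read 13.15 to 13.21 in experiment 1 and 12.13 to 12.61 in experiment 2.

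Complex V had a median of -0.12. The subunits of the catalytic head fell, Atp5a1 (alpha) by 0.34 ± 0.06 and Atp5b (beta) by 0.12 ± 0.05, and Atp5d fell by 1.17 ± 0.10. The Atp5b call was lost without 1 or another of 7 arrays, with limma adjusted p of 0.0128 to 0.0791 as each array was left out. Atp5c1, the gamma subunit of the rotor, rose by 0.41 ± 0.06, and Atp5o, the subunit that ties the peripheral stalk to the head, by 0.78 ± 0.07.

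The difference between the experiments was also taken in each genotype alone, from arrays that the 2 genotypes do not share. In wild-type mice 33 members passed, 22 higher and 11 lower, against 69.3% of all genes, 37.3% higher and 32% lower. In heterozygous mice 34 passed, 22 higher and 12 lower, against 62.3% of all genes, 31% higher and 31.3% lower. With arrays centred on their medians these splits were 18 against 15 and 18 against 16, and after quantile normalisation 26 against 11 and 24 against 9. Of the 41 members, 32 were called in the same direction in both genotypes, against 56.2% of all genes, and 0 in opposite directions. The differences of the 2 genotypes correlated over the 41 members with r = 0.993, and over all genes with r = 0.958, as a description over genes that share arrays within each genotype. Ndufa1 rose by 4.44 ± 0.12 in wild-type and 4.37 ± 0.13 in heterozygous mice, and Cox17 by 3.85 ± 0.11 and 3.92 ± 0.12. The experiment differences of Ndufb3 were 1.06 ± 0.13 and 0.63 ± 0.14, and those of Atp5d were -0.98 ± 0.13 and -1.38 ± 0.14. Leaving out a single array ended the call in heterozygous mice for Atp5a1 (smallest difference -0.17, without replicate 1 of experiment 2), Cox8a (-0.15, without replicate 3 of experiment 2), Ndufa8 (0.24, without replicate 1 of experiment 2), Ndufv1 (0.22, without replicate 3 of experiment 2) and Uqcrc1 (-0.32, without replicate 3 of experiment 2).

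**Figure D4:**
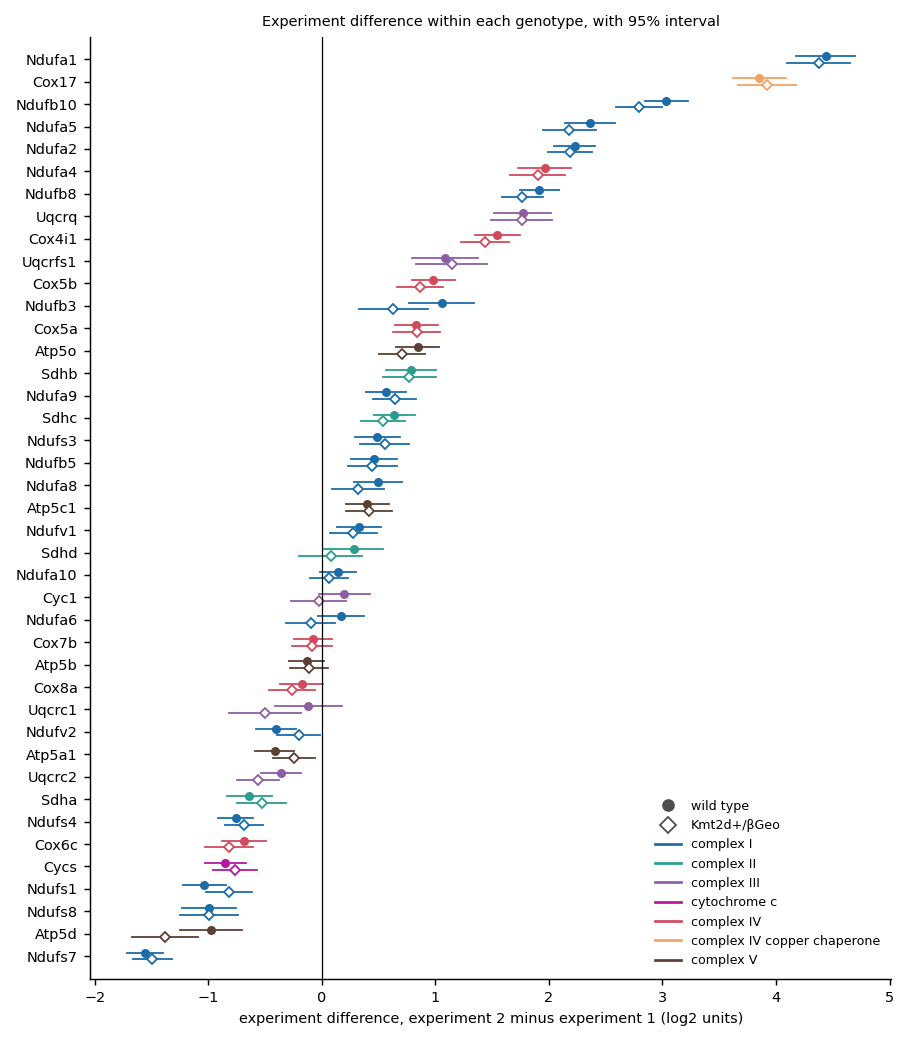
For each member the horizontal axis gives the difference between the experiments (experiment 2 minus experiment 1, log2 units), with a filled circle for wild-type mice, an open diamond for Kmt2d+/βGeo mice and lines for 95% intervals, coloured by complex. The values run from -1.56 and -1.49 for Ndufs7 to 4.44 and 4.37 for Ndufa1, and the genotypes lie furthest apart for Ndufb3 (1.06 and 0.63) and Atp5d (-0.98 and -1.38).

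For 5 members the annotation lists several probe sets, and they did not always give the same answer. Probe set numbers run along the chromosomes. The commonest chromosome among the up to 6 neighbours of a probe set was its gene's own in 96.9% of 21698 cases. The brightest probe sets of Cycs, Cox6c and Cox7b had neighbours on other chromosomes instead. Cycs and other respiratory genes are known to have processed copies elsewhere in the genome, and the sources do not give the copies that these probes match. The Cycs probe set at its own chromosome rose by 0.83 ± 0.17 between the experiments, while the brightest fell by 0.81 ± 0.06. The rising probe set was dim, with a mean of 6.92 log2 units against 11.89 for the brightest. Medians of the arrays ran from 6.74 to 7.08. Another Cycs probe set with neighbours elsewhere, at a mean of 11.38, fell by 0.47 ± 0.06. For Cox6c both fell, by 0.28 ± 0.05 at its own chromosome and by 0.75 ± 0.07 for the brightest. For Cox7b the values were 0.20 and -0.08. Both Ndufs3 probe sets rose, the brightest by 0.52 ± 0.07 and the other by 0.23 ± 0.09. Both of Cox5b rose too, by 0.93 ± 0.06 and 0.79 ± 0.10. The direction for Cycs and Cox7b is therefore uncertain, while 0 members were called for genotype with either choice. This check was chosen after the data were seen.

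Other genes of the pathway were read from 7 lists. Of 137 genes, 113 were measured, and 0 of these passed the genotype test over both experiments (limma, 0% of all genes). The 13 mitochondrially encoded genes formed 1 of the lists, with 0 measured. Of the 32 measured subunits outside the list of 41, 7 were above 0 and 25 below (51% of all genes were above), with a median of -0.03 (0.002 over all genes). The experiments differed here, with 18 above and 14 below in experiment 1 (57.5% of all genes above) and 5 above and 27 below in experiment 2 (47% of all genes above). Without heterozygous replicate 3 of experiment 2 the split over both experiments was 16 above and 16 below (55.6% of all genes above). That in experiment 2 was then 15 and 17 (52.5% of all genes above). The lowest p among the 32 subunits belonged to Uqcrb of complex III (-0.11 ± 0.06) and Ndufa11 of complex I (-0.15 ± 0.09). Of 40 assembly factors, 26 were above 0 (51% of all genes were). Acad9, which takes part in building complex I, differed by -0.13 ± 0.07 and Ndufaf1, another such factor, by 0.14 ± 0.09.

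The transcriptional regulators had a median genotype difference of 0.004 over 15 genes. Tfb2m, a mitochondrial transcription factor, differed by 0.13 ± 0.09 and Gabpb1, the partner of the ETS factor Gabpa, by 0.12 ± 0.09. Among 10 carriers and channels, the outer membrane channel Vdac1 differed by -0.04 ± 0.05 and the mitochondrial creatine kinase Ckmt1 by 0.05 ± 0.07. Among 7 antioxidant genes, the glutathione peroxidase Gpx4 differed by -0.18 ± 0.11 and the thioredoxin reductase Txnrd2 by 0.07 ± 0.06.

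The tissue-specific isoforms held the largest genotype difference of these lists. Cox8b, the heart and muscle form of the subunit that Cox8a encodes, had means of 8.13 in wild-type and 6.94 in heterozygous mice of experiment 1, and of 7.94 and 7.70 in experiment 2. The difference over both was -0.74 ± 0.28 (limma adjusted p = 0.826), with -1.18 ± 0.35 in experiment 1 and -0.24 ± 0.38 in experiment 2. The 10 choroid plexus marker genes had a median genotype difference of -0.82 in experiment 1 and 0.38 in experiment 2, with array means of 7.99 to 9.32 in wild-type and 7.90 to 8.23 in heterozygous mice of experiment 1. Their part in the Cox8b values was not tested. Ndufa4l2, an isoform of Ndufa4, differed by 0.10 ± 0.06.

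Between the experiments, 23 of the 32 other subunits were higher and 5 lower, with a median of 0.62, where 41.8% of all genes were higher and 35.4% lower. Uqcr10 of complex III rose by 2.35 and Atp5l of complex V by 2.17, while Atp5g2, a gene of the c ring, fell by 1.07. Of the tricarboxylic acid cycle, which feeds the chain, 9 of 12 genes were lower and 1 higher, with a median of -0.68. Citrate synthase (Cs) fell by 1.22 and Dld, a subunit shared by the 2-oxo acid dehydrogenases, by 1.43. Of 40 assembly factors, 14 were higher (35%) and 21 lower (52.5%), with a median of -0.21. Their split was 12 higher and 25 lower with arrays centred on their medians. After quantile normalisation it was 15 and 17, with a median of -0.07. Of 35 mitochondrial ribosomal proteins, 17 were higher (48.6%) and 9 lower (25.7%), with a median of 0.16 that turned to -0.08 with arrays centred on their medians.

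Of the 15 regulators, 7 were lower (46.7%, against 35.4% of all genes) and 3 higher (20%, against 41.8%). This split was 11 lower and 1 higher when centred, and 8 lower and 5 higher after quantile normalisation. Gabpa fell by 1.67, Tfb2m by 1.32 ± 0.09, Tfam, which packages mitochondrial DNA, by 0.90 and Yy1 by 0.83, while Nrf1 rose by 0.40. Vdac1 fell by 2.66 ± 0.05. Among the antioxidants Gpx4 rose by 2.00 ± 0.11, and the manganese superoxide dismutase Sod2 fell by 1.81. Markers of several cell types were also lower in experiment 2, against 35.4% of all genes: 7 of 8 for pyramidal neurons (median -0.76), 7 of 8 for dentate granule cells (-0.56), 7 of 8 for astrocytes (-0.69), 4 of 5 for endothelium (-0.53) and 5 of 9 for myelin (-0.54). Astrocytes, endothelium and myelin each also had 1 marker higher. Microglia, ependyma and meninges each had 3 higher and 3 lower of 8, and inhibitory neurons had 2 higher and 4 lower of 8. Fast-spiking interneurons had 1 higher and 3 lower of 6, choroid plexus 4 of 10 lower and striatum 1 of 6 lower. The part of these markers in the members' differences was not tested.

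**Figure D5:**
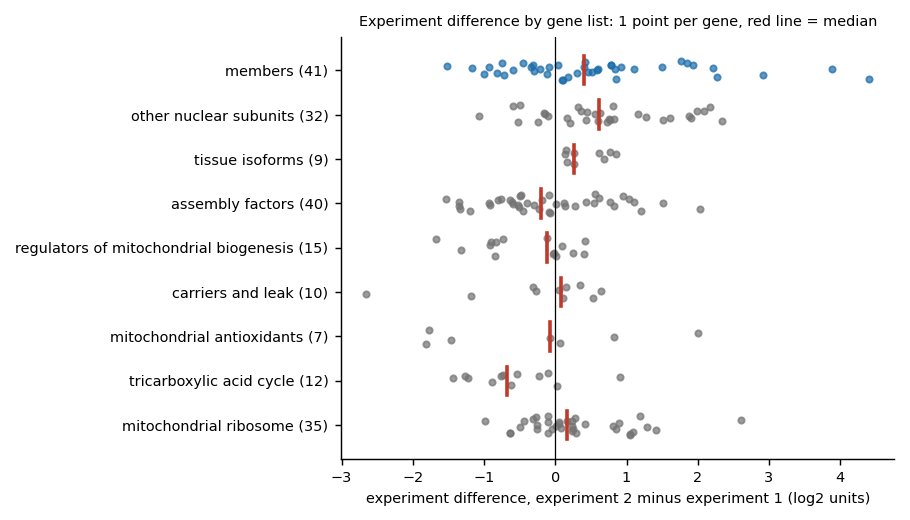
Each point is 1 gene, placed by its difference between the experiments (horizontal axis, experiment 2 minus experiment 1, log2 units), in 9 gene lists with the number of measured genes in brackets and a red line at the median. The median was 0.41 for the members, 0.62 for the other nuclear subunits and -0.68 for the tricarboxylic acid cycle.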

How the data were processed

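Total RNA of 13 hippocampi was hybridised to Affymetrix Mouse Gene 1.0 ST arrays. The authors deposited log2 intensities made with RMA in oligo, per the submitters' processing notes. Median polish there joins the probes of a probe set. The oligo version and genome build, and whether both experiments were normalised together, are not stated. The platform annotation gave 21789 of 35556 probe sets 1 gene and 1621 several. The 19938 genes were each represented by their brightest probe set, with no filter.

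Values were tested with limma 3.58.1 in R 4.3.3 (lmFit and eBayes, two-sided), adjusted by Benjamini-Hochberg over all genes, with an adjusted p of 0.05 as the threshold. Genotype and experiment were terms of 1 model, and 4 group means formed another. Errors are limma's SE unless an SD is named. Exact permutation exchanged genotypes within experiments (700 regroupings). The number of arrays limits the precision. Only the genotype test over both experiments was run on simulated data, with noise drawn independently for each gene and array.

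The members and lists were chosen with earlier results of these data known. Members were picked for description, per complex, by lowest genotype p, lowest p for the difference of genotype differences and largest experiment difference. Other members and pathway genes named were chosen after their values were seen, apart from the 2 genes of lowest genotype p in each pathway list.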

Additional observations from a re-analysis of the deposited data

Results flagged for a closer look

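In the wild-type group of experiment 1, the group of 4 mice, 5 of 41 members had 1 array far from the other 3 by Dixon's criterion, where chance gives about 1 group in 20, or about 2.05 here. Replicate 2 accounted for 4 of the 5. It read 12.44 for Ndufs7, above the others at 12.29 to 12.31, and 12.64 for Atp5d, below the others at 12.72 to 12.73. It read 11.06 for Cyc1, below the others at 11.19 to 11.21, and 8.86 for Sdhd, where the other 3 arrays shared the value 9.35. Replicate 3 read 11.04 for Uqcrc1, above the others at 10.85 to 10.88.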

How the results depend on the processing

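No member was called for genotype, in either experiment, over both or in the difference between them, under any setting run. Other settings changed the sign of up to 14 of the 41 uncalled differences over both experiments. As many as that changed without 3 arrays set aside, in experiment 1 the wild-type replicates 2 and 3, in experiment 2 heterozygous replicate 3. The members' deviations had an SD of 0.12, 0.06 and 0.21 on these arrays in turn. By that measure wild-type replicate 3 did not stand apart. Leaving out each array in turn, the members' median genotype difference was -0.02 to 0.01 over both experiments, -0.003 to 0.04 in experiment 1, -0.0955 to -0.0117 in experiment 2 and -0.08 to -0.01 for the difference of these. That last median was -0.0035 without the 3 arrays. The median between the experiments was 0.38 to 0.43, with 34 to 39 members called, 0.34 to 0.44 in wild-type and 0.27 to 0.43 in heterozygous mice.

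It was 0.16 with arrays centred on their medians and 0.55 after quantile normalisation. In wild-type mice it was 0.16 centred, 0.57 by quantiles, 0.33 with the mean of a gene's probe sets, 0.34 with array weights, 0.32 without the 3 arrays and 0.46 with probe sets at the gene's own chromosome. In heterozygous mice it was 0.069, 0.55, 0.40 with weights, 0.43 without the 3 arrays and 0.42 at the own chromosome. Ndufa6 reversed to -0.20 when centred, with 3 other members turning sign while not called, 3 calls lost and 2 gained. At the own chromosome Cycs reversed to 0.83 (1.06 in wild-type, 0.56 in heterozygous mice), with a dim probe set (mean 6.92 log2 units). Cox7b turned to 0.20 there (0.19 and 0.20). The cause was not tested.

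Whether the replicate numbers paired the samples cannot be told from these values. Of 6 same-numbered pairs, 1 deviated together with r over 0.1 (range -0.23 to 0.22). Differently numbered pairs ran from -0.28 to 0.33. With the replicate number as a block, 0 members were called for genotype and 36 between the experiments, 33 in wild-type and 34 in heterozygous mice, with 0 calls lost or gained.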
